A study of Mus musculus with 8 samples.

Results

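The genes examined were the subunits of condensin and the SMC ATPases of the SMC5/6 complex, which were *Smc2*, *Smc4*, *Ncaph*, *Ncapd2*, *Ncapg*, *Ncaph2*, *Ncapd3*, *Ncapg2*, *Smc5* and *Smc6*. They were chosen by name, and all 10 were among the 21058 genes listed. Transcript abundance was compared between 4 *Arid1a* WT and 4 *Arid1a* cKO RNA-seq libraries of mouse pachytene spermatocytes, sequenced to learn how the chromatin remodeling subunit ARID1A influences meiotic transcription. Males of the *Arid1a* cKO group carried *Stra8-Cre* (Tg/0) on *Arid1a* fl/fl, and the *Arid1a* WT males were *Arid1a* fl/fl or *Arid1a* fl/+ without Cre, so both genotypes carried a floxed allele. The floxed line is on a CD1 background. Cells were purified by Sta-Put, which separates dissociated testis cells by sedimentation at unit gravity, from the pooled testes of several adult males. *Stra8-Cre* acts from spermatogonia onward and excises incompletely, so *Arid1a* cKO preparations include spermatocytes that still express ARID1A. The labels name the libraries biological replicates, and nothing ties a library of one genotype to a particular library of the other.

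Condensin compacts and stiffens chromosomes by extruding loops of DNA. SMC2 and SMC4 form the ATPase core of both condensins, while condensin I adds the kleisin NCAPH with the HEAT-repeat subunits NCAPD2 and NCAPG, and condensin II adds NCAPH2, NCAPD3 and NCAPG2. Condensin II is nuclear throughout interphase, whereas most condensin I reaches chromosomes after the nuclear envelope breaks down. SMC5 and SMC6 form the core of a related complex that guards recombination intermediates and stalled replication forks, and both proteins have been seen on the synapsed axes and the sex body of mouse spermatocytes.

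Libraries held 15850961 to 22044507 estimated counts, and the members had between 373 (*Ncapd3* in cKO4) and 24866 counts (*Smc4* in WT4) per library. Levels are given as CPM (counts relative to library size, after TMM normalization), which compares libraries, or as TPM, which also divides by transcript length and so compares genes. A gene was called when its adjusted p in the edgeR quasi-likelihood test was 0.05 or less. Across genes, the deviations of *Arid1a* WT libraries from their mean correlated at 0.154 between WT1 and WT4, at 0.14 between WT2 and WT3 and at -0.43 to -0.76 across these pairs, where centering on the mean of 4 libraries alone gives about -0.33, and for some genes the log2 fold change against each pair alone is given. These pairs were formed from the data, so such values are descriptions and carry no test of genotype.

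The targeted gene was lower in every *Arid1a* cKO library. *Arid1a* measured 105, 128.5, 121 and 98.8 CPM in WT1 to WT4 and 76.4, 81.0, 82.9 and 78.3 CPM in cKO1 to cKO4, a log2 fold change of -0.51 (SE 0.07, edgeR adjusted p = 2.31e-05), or -0.36 against WT1 and WT4 alone and -0.63 against WT2 and WT3 alone. Gene-level counts include exons outside the floxed ones, so this value does not measure excision.

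All 10 members were called, 8 lower and 2 higher in *Arid1a* cKO, and in all 10 the CPM of the genotypes did not overlap. These shares are read against a background in which 74.0% of the 17643 genes tested were called, 36.5% higher and 37.5% lower, and 68.9% did not overlap. The median log2 fold change was -0.56 over the members and -0.02 over all genes tested. Of all genes tested, 7.86% fell by more than *Ncapd3*, the member with the largest fall, and 32.4% by more than *Ncaph*, the lower member with the smallest fall. The plot of CPM by library shows each member.

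**Figure D1:**
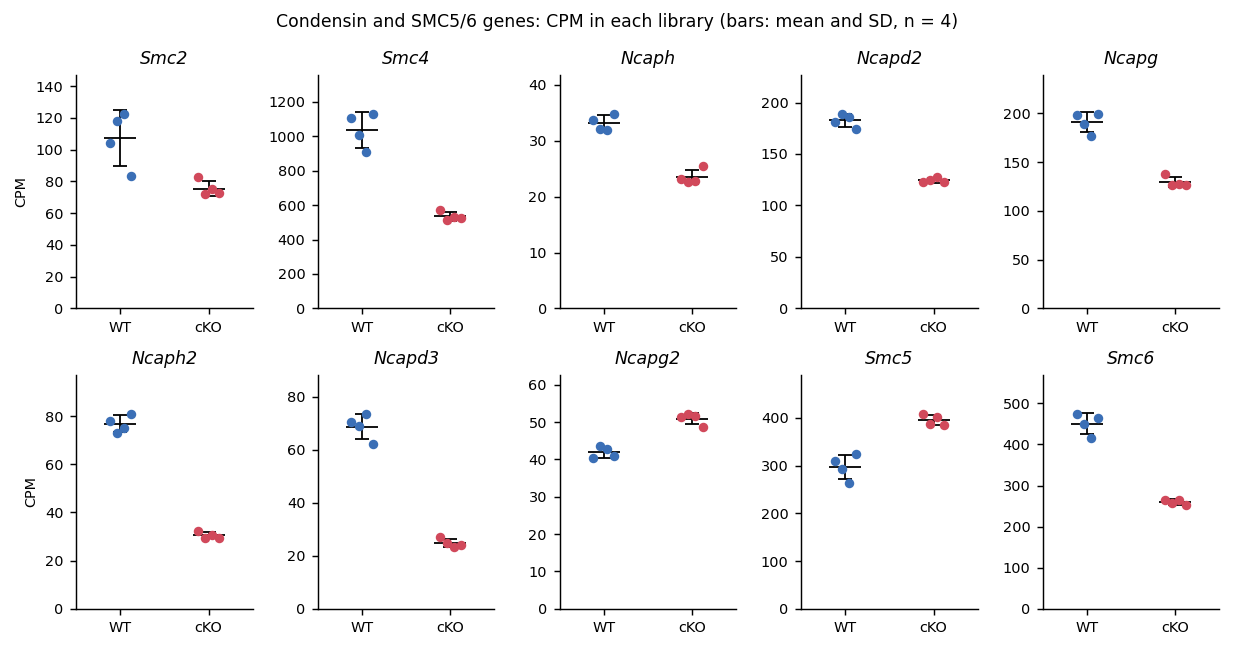
CPM (vertical axis, from 0) of each member in the 4 *Arid1a* WT and 4 *Arid1a* cKO libraries, with points for libraries and bars for the mean and SD. *Ncapg2* and *Smc5* lie higher in *Arid1a* cKO and the other 8 lie lower, with no overlap, though WT4 and cKO1 of *Smc2* are close at 83.7 and 82.8 CPM.

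Both shared ATPases fell. *Smc4* (chr3:69004738-69034623, GRCm38), the most abundant member, measured 1103, 1004, 906 and 1131 CPM in WT1 to WT4 and 571.7, 510.8, 530.5 and 523.9 CPM in cKO1 to cKO4. Every *Arid1a* cKO library was thus well under the lowest *Arid1a* WT library. The mean went from 1036 ± 102 to 534 ± 26.3 CPM (SD, n = 4), 51.6% of *Arid1a* WT, with a log2 fold change of -0.96 (SE 0.07, edgeR adjusted p = 1.17e-08), or -1.07 against WT1 and WT4 alone and -0.82 against WT2 and WT3 alone. *Smc2* (chr4:52439221-52488365), its partner in the ATPase dimer, measured 104.1, 118.2, 122.8 and 83.7 CPM in WT1 to WT4 and 82.8, 71.8, 75.0 and 72.6 CPM in cKO1 to cKO4. WT4 was the lowest *Arid1a* WT library and stood barely above cKO1, so *Smc2* had the widest relative spread among *Arid1a* WT libraries. Its log2 fold change was -0.50 (SE 0.10, edgeR adjusted p = 3.17e-04), or -0.32 against WT1 and WT4 alone and -0.65 against WT2 and WT3 alone.

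The 3 subunits particular to condensin I fell by similar amounts on the CPM scale. *Ncaph* (chr2:127103809-127133954), the kleisin that closes the SMC ring, measured 33.7, 32.1, 32.0 and 34.9 CPM in WT1 to WT4 and 23.2, 22.7, 22.8 and 25.5 CPM in cKO1 to cKO4. *Ncapd2* (chr6:125168007-125192100), a HEAT-repeat subunit, measured 181.4, 189.3, 185.8 and 174.1 CPM in WT1 to WT4 and 122.7, 124.9, 127.6 and 123 CPM in cKO1 to cKO4. *Ncapg* (chr5:45669891-45700547), the other HEAT-repeat subunit, measured 197.9, 188.7, 177.3 and 199.9 CPM in WT1 to WT4 and 137.5, 126.4, 127.4 and 126.6 CPM in cKO1 to cKO4. In all 3 the genotypes stood apart by more than the range within either one. The log2 fold changes were -0.50 for *Ncaph* (SE 0.06, edgeR adjusted p = 2.91e-06), -0.55 for *Ncapd2* (SE 0.05, adjusted p = 4.3e-08) and -0.56 for *Ncapg* (SE 0.05, adjusted p = 1.92e-07), so each remained at 67.8% to 70.9% of *Arid1a* WT. These sizes depend on the unit. The transcript length recovered from counts and TPM was longer in *Arid1a* cKO by 0.36 log2 units for *Ncapd2* and 0.14 for *Ncaph*, and with offsets for that length the log2 fold change became -0.96 for *Ncapd2* and -0.68 for *Ncaph*, and -0.65 for *Ncapg*. Of the exonic bases of *Ncapg*, 13.4% overlap exons of *Lcorl* on the opposite strand, and 12.4% of its 31-base words also occur in *Lcorl* transcripts. *Lcorl* went from 129 ± 8.77 to 35.0 ± 0.89 CPM (SD, n = 4), and the strand setting of the counting is not given in the sources used here, so a part of the *Ncapg* value may be shared with *Lcorl*.

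Condensin II showed a split between its subunits. *Ncaph2* (chr15:89355719-89372850), its kleisin, measured 78.1, 73.1, 75.1 and 80.9 CPM in WT1 to WT4 and 32.1, 29.6, 30.7 and 29.6 CPM in cKO1 to cKO4. The highest *Arid1a* cKO library was under the lowest *Arid1a* WT library by more than the range within *Arid1a* WT. The log2 fold change was -1.33 (SE 0.05, edgeR adjusted p = 1.22e-11), leaving 39.7% of *Arid1a* WT. Exons of *Sco2* and *Tymp* on the opposite strand overlap 32.5% of the exonic bases of *Ncaph2*, and those genes measured 14.5 ± 1.82 and 0.48 ± 0.11 CPM in *Arid1a* WT and 14.2 ± 1.19 and 0.60 ± 0.20 CPM in *Arid1a* cKO (SD, n = 4), with adjusted p = 0.776 and 0.376 in edgeR. Of the 31-base words of *Ncaph2*, 30.4% occur in transcripts of another gene, so its reads could have been split with these genes. *Ncapd3* (chr9:27030165-27096522), a HEAT-repeat subunit of condensin II, measured 70.5, 69.0, 73.6 and 62.3 CPM in WT1 to WT4 and 27.0, 24.8, 23.3 and 24.0 CPM in cKO1 to cKO4. It had the largest fall of the members, to 36.0% of *Arid1a* WT, with a log2 fold change of -1.47 (SE 0.07, edgeR adjusted p = 4.25e-11).

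*Ncapg2* (chr12:116405351-116463532), the remaining HEAT-repeat subunit of condensin II, was the exception. It measured 40.5, 43.7, 42.7 and 40.9 CPM in WT1 to WT4 and 51.3, 52.2, 51.5 and 48.7 CPM in cKO1 to cKO4, so the counts of the genotypes did not overlap. The log2 fold change was 0.28 (SE 0.05, 95% interval 0.17 to 0.39, edgeR adjusted p = 1.36e-04). In TPM it measured 18.9, 21.5, 22.2 and 16.1 in WT1 to WT4 and 20.6, 20.7, 21.6 and 17.3 in cKO1 to cKO4, and here the genotypes overlapped. With offsets for recovered transcript length the log2 fold change was 0.13 (edgeR adjusted p = 0.226), on log2(TPM + 1) it was 0.03 (limma adjusted p = 0.803), and with TPM rescaled to the genes listed it turned to -0.11 (limma adjusted p = 0.383). The rise in *Ncapg2* was therefore a rise in counts that did not pass the test per transcript length, while the falls of *Ncaph2* and *Ncapd3* passed in both units.

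**Figure D2:**
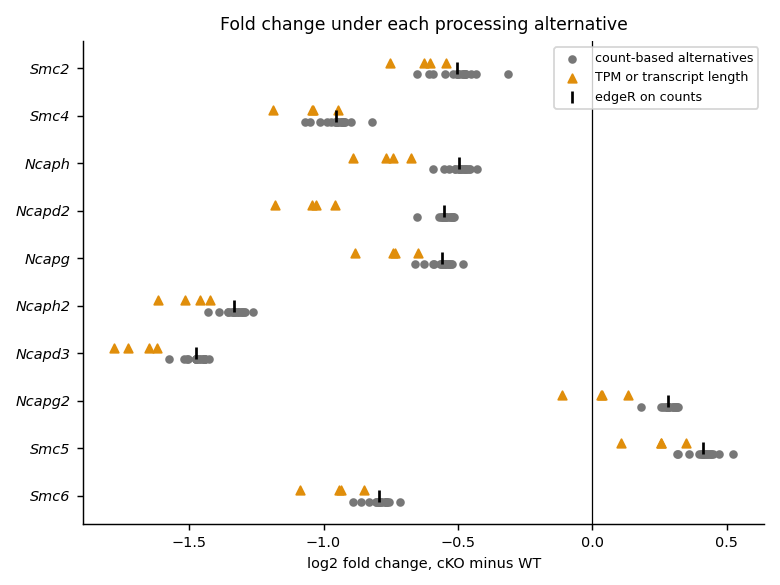
Log2 fold change, *Arid1a* cKO minus *Arid1a* WT (horizontal axis), of each member with edgeR on counts (vertical tick), with the other count-based alternatives (gray circles) and with TPM or transcript length (orange triangles). *Ncapg2* alone crosses 0, from 0.32 to -0.11, and *Ncapd2* shifts most between the kinds of unit.

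The SMC5/6 ATPases moved in opposite directions. *Smc5* (chr19:23206441-23273922) measured 308.9, 292.6, 264.6 and 323.6 CPM in WT1 to WT4 and 408.7, 387, 401.3 and 386.1 CPM in cKO1 to cKO4. Its log2 fold change was 0.41 (SE 0.06, edgeR adjusted p = 2.18e-05), or 0.32 against WT1 and WT4 alone and 0.52 against WT2 and WT3 alone. Every *Arid1a* cKO library was above every *Arid1a* WT library. The call held in TPM with smaller values. The log2 fold change was 0.26 on log2(TPM + 1) (limma adjusted p = 0.000523) and 0.10 with TPM rescaled to the genes listed (limma adjusted p = 0.0369). *Smc6* (chr12:11265886-11319785), the obligate partner of SMC5, measured 474.5, 449, 414.5 and 465.4 CPM in WT1 to WT4 and 265.6, 256.4, 265 and 252.8 CPM in cKO1 to cKO4. The level fell to 57.7% of *Arid1a* WT, with a log2 fold change of -0.79 (SE 0.05, edgeR adjusted p = 3.6e-09).

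Ratios of paired subunits within a library do not depend on how libraries are scaled, and they test whether the subunits of a pair changed by different amounts. The *Smc5* to *Smc6* ratio of TPM was 0.922, 0.901, 0.832 and 0.974 in WT1 to WT4 and 2.07, 2.07, 2.09 and 2.11 in cKO1 to cKO4, so *Smc5* went from slightly less abundant than *Smc6* to more abundant in every library. The log2 ratio differed by 1.201. The *Ncaph* to *Ncaph2* ratio was 0.797, 0.868, 0.68 and 0.664 in WT1 to WT4 and 1.26, 1.38, 1.21 and 1.19 in cKO1 to cKO4, a difference of 0.75 on the log2 scale. In TPM the condensin II kleisin was thus above the condensin I kleisin in every *Arid1a* WT library and below it in every *Arid1a* cKO library. That order rests on the transcript lengths used for TPM, and reads of *Ncaph2* could have been split with other genes, as given above. In CPM, which does not divide by length, *Ncaph2* was above *Ncaph* in every library of both genotypes. The log2 difference of the ratio of CPM was 0.84. The *Ncapd2* to *Ncapd3* ratio rose from 3.0 to 3.65 in *Arid1a* WT to 5.01 to 5.86 in *Arid1a* cKO, a log2 difference of 0.70. The *Ncapg* to *Ncapg2* ratio moved the other way, from 3.59 to 5.02 in *Arid1a* WT to 2.2 to 2.74 in *Arid1a* cKO, a log2 difference of -0.78. The *Smc2* to *Smc4* ratio rose from 0.0535 to 0.0931 in *Arid1a* WT to 0.0945 to 0.101 in *Arid1a* cKO, a log2 difference of 0.41 that was 0.26 without WT4. For each of the 5 pairs the libraries of the genotypes did not overlap, and the two-sided exact permutation test over 70 assignments gave p = 0.0286, also 0.0286 adjusted over the 5 pairs, which is the smallest p this design can give.

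**Figure D3:**
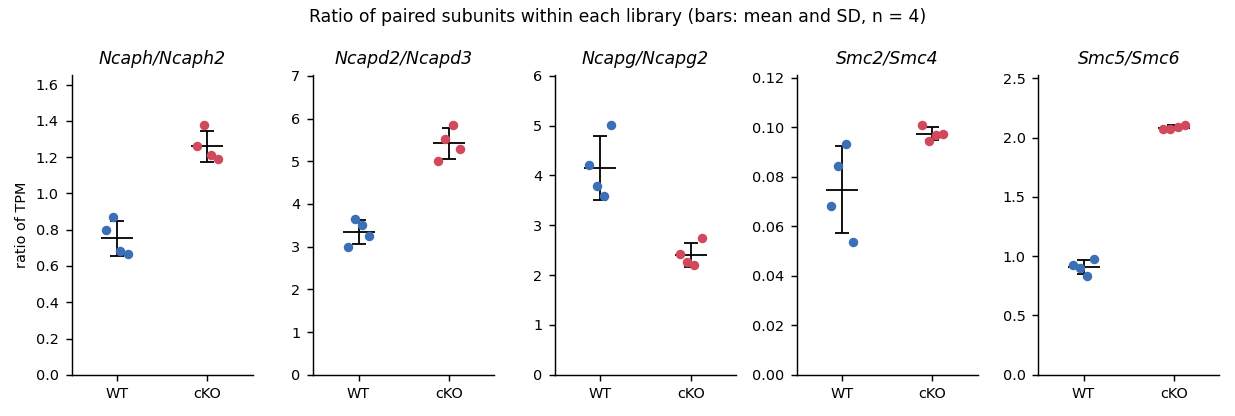
Ratio of TPM (vertical axis, from 0) of 5 pairs of subunits in each *Arid1a* WT and *Arid1a* cKO library, with points for libraries and bars for the mean and SD. The *Smc5* to *Smc6* ratio passes from under 1 to over 2, and in the *Ncapg* to *Ncapg2* pair alone the ratio is lower in *Arid1a* cKO.

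The order of the members' levels in TPM also changed. In *Arid1a* WT, *Smc4* led at 400.4 ± 17.9 TPM (SD, n = 4), followed by *Smc6* at 159 ± 3.10 and *Smc5* at 144 ± 8.38, each apart from the next in every library. *Ncapd2* at 84.9 ± 15.1 and *Ncapg* at 80.3 ± 0.90 TPM did not differ beyond their spread. They were followed by *Ncaph2* at 43.4 ± 2.70, *Ncaph* at 32.6 ± 3.22, *Smc2* at 29.7 ± 5.76, *Ncapd3* at 25.3 ± 3.15 and *Ncapg2* at 19.7 ± 2.80 TPM, and the ranges of neighbors overlapped from *Ncaph* downward. In *Arid1a* cKO, *Smc4* still led at 194 ± 6.495 TPM, followed by *Smc5* at 172 ± 2.98 and *Smc6* next at 82.7 ± 1.41. *Ncapg* at 47.9 ± 1.28 stood above *Ncapd2* at 40.6 ± 0.77 TPM. *Ncapg2* at 20.03 ± 1.88, *Ncaph* at 19.0 ± 0.57 and *Smc2* at 18.9 ± 1.11 TPM were not separable from each other, and *Ncaph2* at 15.1 ± 0.94 and *Ncapd3* at 7.51 ± 0.43 TPM were lowest. The plot of TPM levels shows *Ncaph2* moving from above to below this middle group.

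**Figure D4:**
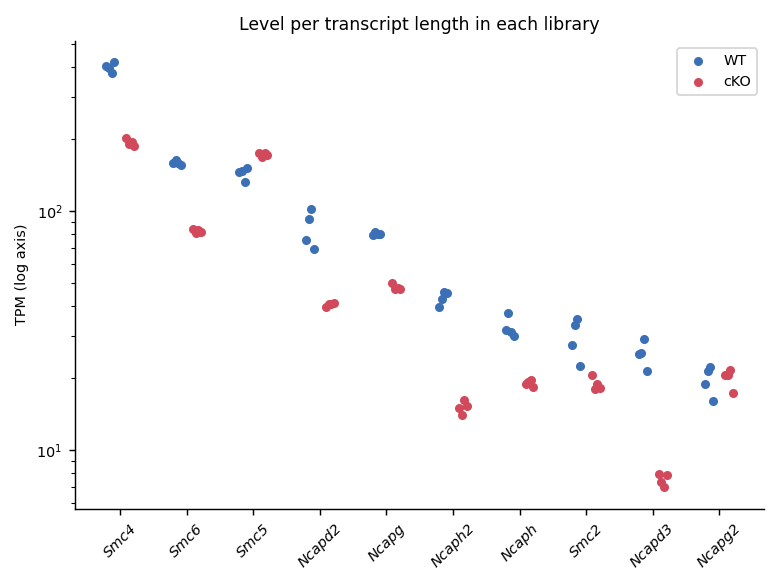
TPM (vertical log axis) of each member in each library, ordered by the mean in *Arid1a* WT, with *Arid1a* WT in blue and *Arid1a* cKO in red. *Smc5* lies above *Smc6* only in *Arid1a* cKO, and *Ncapd3* drops to 7.51 TPM while *Ncapg2* is at 20.03.

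Promoters are shown for the kleisin pair and the NCAPG pair. The subunits of every pair tested above responded by different amounts, so this does not set the pairs shown apart from the others. The sequences are from RefSeq (GRCm38.p6) and run 5′ to 3′ along the gene, from 250 bases before to 50 bases after the start of each promoter entry. For *Ncaph* and *Ncaph2* that start is the gene start given above. For *Ncapg* and *Ncapg2* it lies inside the gene coordinates given above. Of the 10 members 9 had an entry, with 10 promoters in all because *Ncapd3* has a pair. Capitals mark matches on either strand to TTTGAA (the cell cycle genes homology region), CCAAT (bound by NF-Y), GCGGGAA (E2F), TAACNG (MYB) and TGACGTCA (the cAMP response element, CRE), and the 20 matches in the members did not overlap each other. *Ncaph* is at chr2:127133905-127134204 on the minus strand, and *Ncaph2* at chr15:89355469-89355768, *Ncapg* at chr5:45669675-45669974 and *Ncapg2* at chr12:116405186-116405485 are on the plus strand.
Ncaph: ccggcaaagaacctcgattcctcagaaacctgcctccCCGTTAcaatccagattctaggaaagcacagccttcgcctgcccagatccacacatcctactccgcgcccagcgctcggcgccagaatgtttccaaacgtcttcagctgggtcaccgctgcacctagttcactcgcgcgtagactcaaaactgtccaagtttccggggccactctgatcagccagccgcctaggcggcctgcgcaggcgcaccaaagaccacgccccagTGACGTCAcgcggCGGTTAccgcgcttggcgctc
Ncaph2: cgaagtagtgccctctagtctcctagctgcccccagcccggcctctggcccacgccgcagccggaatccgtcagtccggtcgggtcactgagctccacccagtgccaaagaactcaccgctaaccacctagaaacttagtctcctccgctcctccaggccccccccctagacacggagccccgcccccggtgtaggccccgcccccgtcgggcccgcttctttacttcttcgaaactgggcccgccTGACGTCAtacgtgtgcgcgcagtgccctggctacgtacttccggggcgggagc
Ncapg: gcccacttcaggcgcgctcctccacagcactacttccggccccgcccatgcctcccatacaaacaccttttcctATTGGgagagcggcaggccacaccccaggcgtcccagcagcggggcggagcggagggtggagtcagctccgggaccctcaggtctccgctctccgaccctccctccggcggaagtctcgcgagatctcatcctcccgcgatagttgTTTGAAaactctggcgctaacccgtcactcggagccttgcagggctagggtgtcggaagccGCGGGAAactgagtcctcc
Ncapg2: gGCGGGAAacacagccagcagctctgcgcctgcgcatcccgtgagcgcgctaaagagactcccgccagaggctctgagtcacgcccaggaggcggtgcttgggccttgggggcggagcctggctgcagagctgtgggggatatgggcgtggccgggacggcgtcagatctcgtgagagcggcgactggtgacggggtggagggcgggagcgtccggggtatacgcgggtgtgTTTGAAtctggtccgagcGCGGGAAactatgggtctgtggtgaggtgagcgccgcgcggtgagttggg

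Both kleisin promoters held the palindrome TGACGTCA, starting at base 17 after the start in *Ncaph* and 4 bases before it in *Ncaph2*, and no other member promoter did. Among all 32851 promoters of the same length, 1.79% held it. TTTGAA was in 6 of the 10 member promoters and in 17.9% of all promoters. Among the 6 was the second *Ncapd3* entry, at chr9:27060166-27060465 within the gene, while the *Ncapd3* entry at the gene start had 0 matches to any motif. In *Ncapg* and *Ncapg2* TTTGAA lay 30 and 18 bases before the start of the promoter entry, which is inside the gene coordinates given above. The entries of *Ncapd2* and *Smc5* also start inside their gene coordinates. GCGGGAA was in 2, those of *Ncapg* and *Ncapg2*, against 4.6% of all. CCAAT was in 3 against 37.4%, and TAACNG was in 2 against 23.3%. These matches describe letters in a window, and their relation to the levels of the genes was not tested.

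Of the members, 5 share a start region with a protein-coding gene on the opposite strand, in that its start lies within 1000 bases, against 10.9% of the 21951 protein-coding genes of GENCODE M21. The neighbors, taken by position, did not all follow the member. *Ift80*, an intraflagellar transport gene that starts 168 bases from *Smc4*, went from 244 ± 16.9 to 81.1 ± 1.62 CPM (SD, n = 4), which is a log2 fold change of -1.59 (edgeR adjusted p = 2.69e-12). *Lmf2*, 60 bases from *Ncaph2*, fell with a log2 fold change of -0.63 (adjusted p = 8.05e-08 in edgeR), and *Vps26b*, a retromer gene 110 bases from *Ncapd3*, with -0.25 (adjusted p = 0.0188). In the other pairs the neighbor rose where the member fell. *Gen1*, which encodes a Holliday junction resolvase and starts 85 bases from *Smc6*, had a log2 fold change of 0.53 (edgeR adjusted p = 0.00112), and *Mrpl51*, a mitochondrial ribosomal gene 100 bases from *Ncapd2*, had 0.24 (adjusted p = 0.00318).

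The other subunits and recruiters of SMC5/6 mostly fell. Of 8 tested, 6 were called lower, 1 higher and 1 was not called, with a median log2 fold change of -0.59, beside 37.5% lower and 36.5% higher among all genes tested. The smallest of these falls, that of *Simc1* at -0.18 (edgeR adjusted p = 0.0101), did not pass at 0.01. *Nsmce3*, the MAGE-domain subunit, measured 57.4, 50.7, 50.8 and 55.6 CPM in WT1 to WT4 and 10.2, 9.93, 9.28 and 9.83 CPM in cKO1 to cKO4, a log2 fold change of -2.45 (edgeR adjusted p = 1.98e-13) that exceeded that of any member. *Nsmce4a*, the kleisin of the complex, fell from 39.1 ± 3.17 to 14.2 ± 0.71 CPM (SD, n = 4), which is a log2 fold change of -1.47 (edgeR adjusted p = 1.16e-10). Its testis-enriched paralog *Eid3* was the most abundant of the list in CPM and in TPM and was not called in the main fit to counts, at 637, 578.4, 528.1 and 686 CPM in WT1 to WT4 and 614.4, 599, 596 and 585.5 CPM in cKO1 to cKO4. The *Eid3* libraries of the genotypes overlapped, with a log2 fold change of -0.02 (95% interval -0.17 to 0.13, edgeR adjusted p = 0.799), which was -0.15 against WT1 and WT4 alone and 0.13 against WT2 and WT3 alone. In TPM *Eid3* was called lower, at -0.15 on log2(TPM + 1) (limma adjusted p = 0.0284) and -0.30 with TPM rescaled to the genes listed (limma adjusted p = 0.000158), which makes 7 of the 8 lower in that unit. On counts with library sizes without TMM it was also called lower, at -0.12 (edgeR adjusted p = 0.0498). *Slf2*, which with *Slf1* recruits SMC5/6 to DNA damage, had a log2 fold change of -1.06 (edgeR adjusted p = 1.4e-10), and *Slf1* had -0.46 (adjusted p = 1.86e-05), or -0.56 against WT1 and WT4 alone and -0.35 against WT2 and WT3 alone. *Nsmce1*, the RING-finger subunit, was the gene called higher, from 108 ± 11.9 to 149 ± 3.95 CPM (SD, n = 4), with a log2 fold change of 0.46 (edgeR adjusted p = 2.32e-05). For *Nsmce1* the value was 0.33 against WT1 and WT4 alone and 0.62 against WT2 and WT3 alone, and in TPM it was smaller, 0.28 on log2(TPM + 1) (limma adjusted p = 0.00109) and 0.13 with TPM rescaled to the genes listed (limma adjusted p = 0.0459).

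Partners and regulators of condensin went both ways. Of 12 listed, 11 were matched by symbol, 5 called higher and 6 lower, with a median log2 fold change of -0.23. Among all genes tested, 36.5% were called higher and 37.5% lower. *Akap8*, an anchoring protein that recruits condensin to chromatin, measured 136.4, 160.4, 169.3 and 110.3 CPM in WT1 to WT4 and 38.6, 36.0, 39.9 and 39.1 CPM in cKO1 to cKO4. It had the largest change of the list, with a log2 fold change of -1.91 (edgeR adjusted p = 8.07e-10), or -1.69 against WT1 and WT4 alone and -2.08 against WT2 and WT3 alone. The kinase genes of the list differed in direction. Called lower were *Aurkb* at -1.19 (edgeR adjusted p = 1.83e-10), *Cdk1* at -0.98 (adjusted p = 1.38e-09) and *Aurkc* at -0.38 (adjusted p = 9.56e-04). *Aurkc* had -0.52 against WT1 and WT4 alone and -0.21 against WT2 and WT3 alone. *Plk1* was called higher, at 1.03 (edgeR adjusted p = 2.88e-10). *Kif4*, an X-linked chromokinesin gene whose product binds condensin I, rose from 5.82 ± 0.58 to 15.1 ± 0.83 CPM (SD, n = 4), which is a log2 fold change of 1.37 (edgeR adjusted p = 2.87e-09). *Top2a*, the topoisomerase that works with condensin and the gene with the highest CPM of the list, fell by 0.26 on the log2 scale (edgeR adjusted p = 0.00106), with -0.36 against WT1 and WT4 alone and -0.14 against WT2 and WT3 alone. *Top2b* and *Mki67* were among those called higher on counts, and neither was called with offsets for transcript length (edgeR adjusted p = 0.176 and 0.112) or in TPM. On counts, *Mki67* was also not called with library sizes without TMM (edgeR adjusted p = 0.113).

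**Figure D5:**
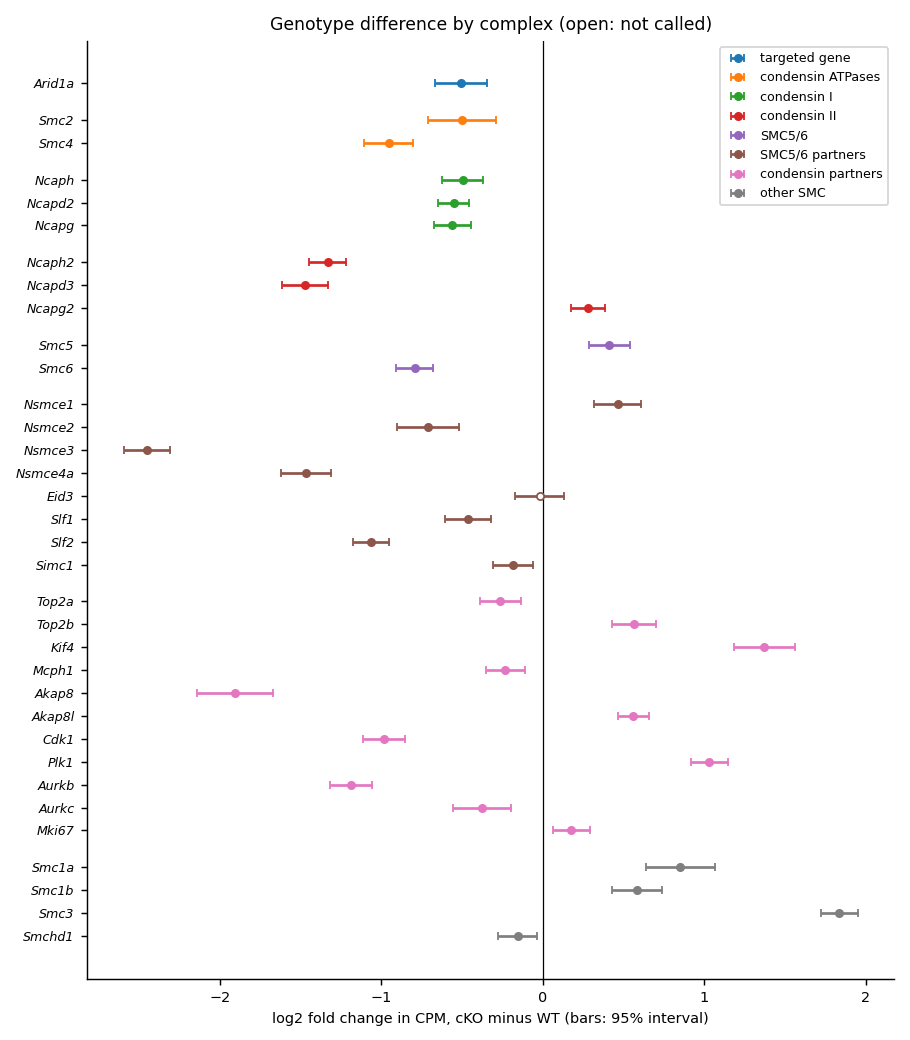
Log2 fold change in CPM, *Arid1a* cKO minus *Arid1a* WT (horizontal axis), with 95% intervals, for *Arid1a*, the members and the partner lists, colored by complex, with an open symbol for a gene not called. Most condensin and SMC5/6 genes lie left of 0, *Nsmce3* lies farthest left at -2.45, and *Smc3* farthest right at 1.83.

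Of the 4 SMC genes outside condensin and SMC5/6, 3 were called higher and 1 lower. The shares among all genes tested were 36.5% higher and 37.5% lower, and a difference of this list from the members was not tested. *Smc3*, a cohesin ATPase, measured 49.2, 46.5, 52.3 and 46.7 CPM in WT1 to WT4 and 177.2, 170.9, 180.2 and 165.5 CPM in cKO1 to cKO4, a log2 fold change of 1.83 (edgeR adjusted p = 3.97e-13). Its meiotic partner *Smc1b* rose from 258 ± 29.9 to 386 ± 16.6 CPM (SD, n = 4), which is a log2 fold change of 0.58 (edgeR adjusted p = 4.48e-06) that was 0.44 against WT1 and WT4 alone and 0.75 against WT2 and WT3 alone, and the X-linked *Smc1a*, at under 10 CPM in every library, also rose. *Smchd1*, a noncanonical SMC gene, had a log2 fold change of -0.16 (edgeR adjusted p = 0.0216) and was not called without WT4 (adjusted p = 0.0625) or without cKO4 (adjusted p = 0.0751). It was also not called with DESeq2, at -0.13 (DESeq2 adjusted p = 0.0956), or in edgeR with DESeq2 size factors (adjusted p = 0.0663). The fall in *Smchd1* was larger and called with offsets for transcript length, at -0.29 (edgeR adjusted p = 0.00726), and in TPM, at -0.35 on log2(TPM + 1) (limma adjusted p = 0.00516) and -0.50 with TPM rescaled to the genes listed (limma adjusted p = 0.000703). Against WT1 and WT4 alone the *Smchd1* value was -0.19, and against WT2 and WT3 alone it was -0.11.

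Marker genes of other cells moved with genotype as well. Their calls are read against all genes tested, of which 36.5% were called higher and 37.5% lower. The spermatid markers (8 genes, including *Prm1*) summed to 5464 to 6245 TPM in *Arid1a* WT and 22750 to 24690 TPM in *Arid1a* cKO, 4.14 times the mean, with 8 of 8 called higher. The pachytene markers (8 genes, led by *Ldhc*) were abundant in both, at 6796 to 7786 and 5188 to 5483 TPM, with 5 called lower and 3 higher. Single genes of this list moved further than the sum. *Piwil1* fell to 6.8% of *Arid1a* WT (log2 fold change -3.88, edgeR adjusted p = 1.39e-14) and *Mybl1* to 40.5% (-1.30, adjusted p = 4.53e-11). *Sycp1* rose, with 0.83 (edgeR adjusted p = 5.59e-09). The call of *Ldhc* itself (log2 fold change -0.19, edgeR adjusted p = 0.0421) was lost in 12 of 22 alternatives, DESeq2 among them (adjusted p = 0.0811), and its CPM overlapped between the genotypes. Sertoli cell markers (6 genes, led by *Clu*) summed to 362 to 426 TPM in *Arid1a* WT and 92.0 to 99.96 TPM in *Arid1a* cKO, with 6 of 6 called lower, and Leydig and peritubular markers (7 genes, including *Insl3*) to 80.1 to 95.7 and 12.6 to 15.6 TPM, with 5 lower and 2 higher. The 5 lower were the Leydig genes. Called higher were the peritubular genes *Acta2* at 0.36 (edgeR adjusted p = 0.0248) and *Myh11* at 0.69 (adjusted p = 0.00112), so the sum does not describe them. Leptotene and zygotene markers (6 genes, led by *Hormad1*) summed to 373 to 421 and 157 to 175 TPM, with 3 lower and 3 higher. Most of this sum was *Hormad1* and *Spo11*, which fell with log2 fold changes of -1.20 and -2.68, and *Meiob* had -0.19. The 3 higher were *Dmc1* at 1.98 (edgeR adjusted p = 7.38e-11), *Prdm9* at 1.73 (adjusted p = 2.12e-07) and *Rad51ap2* at 2.05 (adjusted p = 7.55e-10). Spermatogonial markers (8 genes, led by *Uchl1*) summed to 89.9 to 98.3 and 124 to 134 TPM, with 7 higher, and markers of macrophages and blood (6 genes, including *Lyz2*) to 6.15 to 7.44 and 7.87 to 9.72 TPM, with 3 higher and 1 lower. Mitotic genes (10, including *Ccnb2*) summed to 828 to 874 and 801 to 819 TPM, with 5 higher and 5 lower. This list shares *Aurkb*, *Top2a* and *Mki67* with the condensin partners above. No marker was at 0 in every library. Their part in the differences of the condensin and SMC5/6 genes was not tested, and in these bulk samples fewer cells of a type and less RNA per cell cannot be told apart.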

How the data were processed

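RNA-seq of 4 *Arid1a* WT and 4 *Arid1a* cKO libraries was analysed, with genotype and replicate number from the labels. The authors quantified reads with Salmon on mm10 annotation, summed transcripts to genes with tximport, and deposited unscaled estimated counts and TPM, which Salmon sets relative to the whole library. The genes listed hold 78.1% to 81.1% of all TPM in *Arid1a* WT and 88.1% to 88.6% in *Arid1a* cKO. A deposited table of the authors' DESeq2 fold changes, standard errors and p-values was not used. Symbols came from RefSeq records for 21036 of 21058 gene identifiers. Gene coordinates are from RefSeq GRCm38.p6, the build that mm10 names, and exons, strands and transcripts for overlaps and shared words from GENCODE M21.

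Estimated counts were rounded, and genes with a summed count of at least 10 were tested in edgeR 4.0.16 (R 4.3.3; TMM, quasi-likelihood, genotype only) with Benjamini-Hochberg adjustment over all 17643 genes. The design had been written for counts, and edgeR stands in place of the DESeq2 test used in the study. On simulated counts, with known changes in a small share of genes, the test was checked first. In the data 74.0% of the genes tested were called, a setting that this check did not cover. Ratios of TPM were tested by two-sided exact permutation. Values of CPM were TMM-scaled.

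Alternatives were DESeq2 1.42.0, library sizes without TMM, DESeq2 size factors in edgeR, 3 other filters on low counts, a replicate block, an adjusted p of 0.01, each library left out, edgeR with length offsets (the transcript length that counts and TPM imply), and limma 3.58.1 on log2 TPM with a pseudocount of 1 or 0.1. Pairs of *Arid1a* WT libraries and rescaled TPM were added after seeing the data. Named genes were *Arid1a*, all members, genes of the partner lists past 1 log2 unit or among the 3 highest in CPM, and the marker of each list with the highest TPM over both genotypes, and other names were chosen after their values were seen. The members and lists were chosen with earlier results of these data known. M18bp1 and Hbb-bs were not matched and are not analysed here.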

Additional observations from a re-analysis of the deposited data

Results flagged for a closer look

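In 3 of 94 sets of 4 libraries examined (CPM of 42 genes and 5 ratios of subunits, in each genotype), 1 library stood apart by Dixon's test, where chance gives about 4.7. *Ncapg* in cKO1 was at 137 CPM against 126 to 127 CPM in the other *Arid1a* cKO libraries, a gap of 0.908 of the range. *Simc1* in WT4 was at 72.6 CPM against 64.0 to 65.4 CPM (0.839). *Plk1* in WT4 was at 111 CPM against 99.1 to 99.8 CPM (0.937).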

How the results depend on the processing

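Apart from *Ncapg2*, the members kept their call and direction under the 22 alternatives run, with log2 fold changes from -1.78 to -1.43 for *Ncapd3*, -1.62 to -1.26 for *Ncaph2*, -1.19 to -0.82 for *Smc4*, -1.09 to -0.71 for *Smc6*, -1.18 to -0.52 for *Ncapd2*, -0.89 to -0.43 for *Ncaph*, -0.88 to -0.48 for *Ncapg*, -0.75 to -0.32 for *Smc2* and 0.10 to 0.52 for *Smc5*. For *Ncapg2* the log2 fold change was 0.1312 with recovered length offsets, 0.0319 on log2(TPM + 1), 0.0337 on log2(TPM + 0.1) and -0.1133 on rescaled TPM, none called, so that 1 member was called higher under each of these 4, and 3 condensin partners in place of 5. *Eid3* was called lower in the 3 fits to TPM and, at -0.1161, with library sizes without TMM. Rescaled TPM shifted the median of all genes by -0.113, turned *Top2b* to -0.0346 and *Mki67* to -0.1105, and called 4854 genes higher and 7624 lower in place of 6435 and 6613. Against WT2 and WT3 alone, a pair formed from the data whose calls are no test of genotype, 2 SMC5/6 partners were called higher and 5 lower, without *Simc1* (adjusted p = 0.0717). The call of *Smchd1* was lost, leaving 0 of the other SMC genes lower, with DESeq2, DESeq2 size factors, at least 10 counts in every library, an adjusted p of 0.01 and WT2 and WT3 alone, and with 1 library left out the count ranged from 0 to 1. The cause of these shifts was not tested, beyond the recovered length. Same-numbered libraries share a number only (correlations of deviations 0.202, 0.042, 0.0944 and -0.0917), and with the replicate block 2 members were called higher and 8 lower, as without it, and 6429 genes higher and 6671 lower. Precision is limited by 4 libraries per genotype, and the lowest count of a member in a library was 373.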
